A study of Mus musculus with 56 samples.

Results

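Tandem acceptors 3 bases apart were studied in the alternative acceptor (alternative 3′ splice site) tables of a mouse study on loss of the RNA-binding protein FMRP. An event belonged to the group when its longer exon form exceeded its shorter form by exactly 3 bases, a choice that used coordinates and no measured value. Of 2091 distinct acceptor events over 11 tables, 631 met the rule, at 468 different sites in 446 genes. A site had more than 1 event, for example with different upstream exons, in 130 cases. Of the 468 sites, 392 (83.8%) reached the minimum of 20 junction reads per replicate, on average, in at least 1 table, and 49 did so in all 11. A size of 3 bases made up 30.9% to 37.2% of the events of each table, and the next most common size, 4 bases, had 36 to 62 events per table.

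The study sequenced bulk RNA of 56 samples in 19 groups. Wild-type (WT) and Fmr1 knockout (Fmr1 KO) mice gave 3 brain regions (cortex, hippocampus, cerebellum) and 3 peripheral tissues (liver, muscle, testis), with 3 samples per tissue and genotype. N2a, a mouse neuroblastoma line, was transfected with small interfering RNA against Fmr1 (siFmr1, 3 samples) or with a non-targeting control (siNT, 2 samples). A second N2a experiment with 3 samples per group combined the small interfering RNA with a plasmid: siNT pcDNA, siFmr1 pcDNA, siMbnl1 pcDNA, siFmr1 with a nuclear form of MBNL1 (siFmr1 nMBNL1) and siMbnl1 with a cytosolic form (siMbnl1 cMBNL1), both forms carrying a FLAG tag. The sources used here do not give the strain, age, sex or knockout allele, nor whether replicates were separate animals or cultures, so p-values measure only the spread between these samples. All N2a groups are 1 cell line, and all were transfected with Lipofectamine. Each splicing table compares 2 sets of replicates, set 1 and set 2, and the sources used here do not say which set is which genotype or treatment. The sets are therefore named by number only. In the siFmr1 and siNT experiment, set 1 has 3 replicates and set 2 has 2, as many as there are siFmr1 and siNT samples. The 4 co-transfection comparisons share samples: numbers 1, 2 and 4 have the same set 2, and set 2 of number 3 is set 1 of number 1.

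At the end of an intron, the splicing machinery joins the upstream exon to the base after an AG. U2AF and its relatives recognise the pyrimidine-rich stretch and the AG, and a group of factors that act at the second catalytic step places the final cut. Where NAG is followed directly by another NAG (N is any base), either AG can be used, and the longer messenger RNA carries 3 more bases, which adds or changes 1 amino acid where the site lies in a coding exon and no stop codon arises.

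The sequences below show what the machinery chooses between, for sites that differed between tissues (Iffo1, Ewsr1, Rbm3, Bag6 and Tcea1), for sequence classes (Rnf10, Prmt1, Uqcc1 and Cnbp), for a site of nearly the same level in every tissue (Sparc) and for the site called between sets (Hipk2). They were taken from a GENCODE annotation of GRCm38, 5′ to 3′ on the gene's strand. In the first group, the annotated transcripts also cover the intron, and the capitals mark the upstream and then the downstream acceptor triplet; the second triplet is the part kept only in the long form. The second group shows spliced messenger RNA of the long form, 12 bases of the upstream exon, the 3 extra bases in capitals and 15 bases of the downstream exon.
Iffo1, genomic: ttcccctttctcCAGCAGcaggaggacagc
Ewsr1, genomic: cgtttatcccccCAGCAGcgctggagagcg
Rnf10, genomic: tctgtttcccctCAGAAGacagaggaggga
Prmt1, genomic: tcacccatttggCAGGAGgtggacatctac
Uqcc1, genomic: ttctctttgtttAAGTAGcttcttactacc
Cnbp, genomic: ttttccttattgTTGAAGcctgctataact
Rbm3, spliced: ctacagtggcagAAGccagggtggctatga
Bag6, spliced: tctggagctctgCAGggcgctgggctgggt
Tcea1, spliced: aagagaagaaagTAGttccagcagcaatgt
Sparc, spliced: ctggcagcccctCAGcagactgaagttgct
Hipk2, spliced: ctgcttgctcagCAGgcctggccaggtggg

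The extra 3 bases lie in GRCm38 at chr6:125153407-125153409 (+) in Iffo1, chr11:5079520-5079522 (-) in Ewsr1, chr5:115242059-115242061 (-) in Rnf10, chr7:44978275-44978277 (-) in Prmt1, chr2:155910465-155910467 (-) in Uqcc1 and chr6:87845321-87845323 (-) in Cnbp. They lie at chrX:8143330-8143332 (-) in Rbm3, chr17:35142923-35142925 (+) in Bag6, chr1:4889457-4889459 (+) in Tcea1, chr11:55407277-55407279 (-) in Sparc and chr6:38721595-38721597 (-) in Hipk2. All 11 fall in coding exons of annotated transcripts.

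Among all 468 sites, 402 (85.9%) lay in coding sequence, 54 in a 5′ untranslated region, 5 in a 3′ untranslated region and 6 in noncoding transcripts, and 1 had no annotated place. Both forms were in the annotation at 397 sites (84.8%). The downstream triplet could be read at 453 sites: CAG at 333, AAG at 64, TAG at 44 and GAG at 10. The remaining ones were ATG in Eftud2, which encodes a GTPase of the spliceosome, and CTG in Celf4, which encodes an RNA-binding protein. CAG thus made up 71.2% of all 468 sites. Of 244758 annotated acceptors, 5.56% had an AG at exon bases 2 and 3, as a tandem pair requires. Among such acceptors outside the group, GAG followed in 60.1%, AAG in 22.1%, CAG in 14.6% and TAG in 3.19%. The upstream triplet could be read only at the 97 sites where an annotated transcript covers the intron: CAG at 65, TAG at 17, AAG at 13, GAG at 1, and TTG, with no AG, in Cnbp.

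A TAG in the extra bases is a stop codon when it falls in frame. The frame of the short form was known at 330 sites. Of 27 TAG sites among them, 2 had the extra TAG in frame, 20 followed the first base of a codon and 5 followed the second. The 2 in-frame sites were in Adamtsl5 and in Uqcc1, which encodes an assembly factor of the mitochondrial respiratory chain. Both used the upstream acceptor in a minority of transcripts, at a mean level of 0.264 over 5 tables in Adamtsl5 and of 0.0603 over 11 tables in Uqcc1, where table means ran from 0.0387 to 0.10. CAG sites fell after a complete codon in 97 cases, after the first base in 93 and after the second in 50. Adamtsl5, Uqcc1, Prmt1, Eftud2 and Celf4 were singled out after their values were seen.

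The level of a site is the use of its upstream acceptor, from 0 (only the short form) to 1 (only the long form), computed from junction reads divided by the form length given in the tables. Over the 392 measured sites, the level averaged over tables had a median of 0.638, and 248 sites (63.3%) were above 0.5, that is, made more of the long form. Most sites used both acceptors: 298 (76.0%) lay between 0.1 and 0.9. Table medians ran from 0.614 in muscle to 0.713 in the siFmr1 and siNT experiment, and the median SD between replicates of a set ran from 0.0365 to 0.0579. The median member had 41.7 to 195 junction reads per replicate, depending on the table, which limits the precision of single values.

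Levels differed by sequence class. With a downstream CAG, the median level was 0.596 (275 sites, 60.0% above 0.5), and with a downstream TAG it was 0.641 (39 sites). With a downstream AAG it was 0.90 (56 sites, 83.9% above 0.5), and with a downstream GAG 0.974, with all 8 sites above 0.5. On the upstream side, the order was mirrored: the median was 0.725 at 58 sites with an upstream CAG, 0.718 at 15 with TAG and 0.208 at 12 with AAG. By both triplets together, CAG before AAG had a median of 0.907 (10 sites, 0.720 to 0.996), CAG before CAG 0.625 (41 sites, 0.0963 to 0.962) and AAG before CAG 0.219 (7 sites, 0.148 to 0.917). AAG before TAG, as in Uqcc1, had a median of 0.139 (4 sites, 0.0603 to 0.606), and TAG before CAG 0.508 (11 sites, 0.0336 to 0.969). The ranges of these classes overlapped, except that AAG before TAG stayed below CAG before AAG. The single CAG before GAG, in the arginine methyltransferase gene Prmt1, was at 1.0. These medians describe sites with different reads and tables, and no test between classes was made. In Cnbp, which encodes a zinc-finger nucleic acid-binding protein, the upstream site without an AG was still used, at table means of 0.229 to 0.353.

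**Figure D1:**
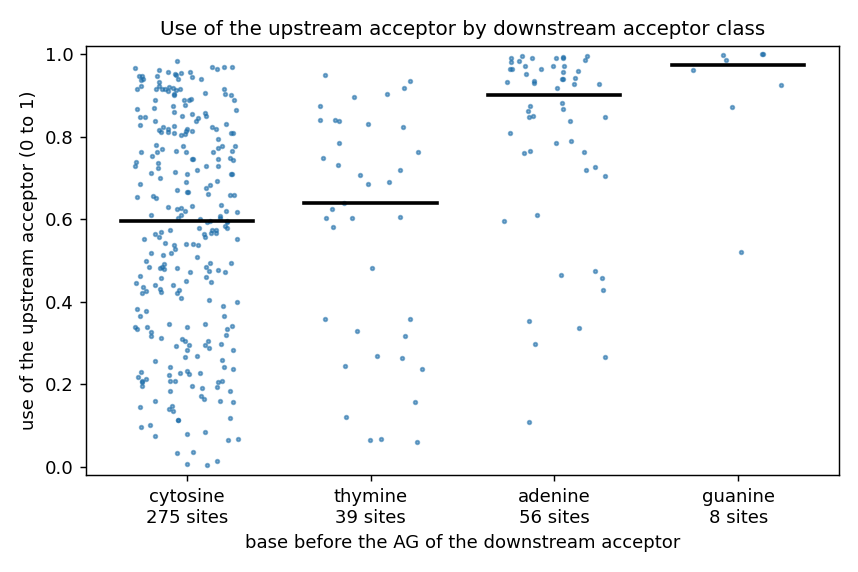
Each point is 1 site, placed by the base before the AG of its downstream acceptor (horizontal axis) and its mean use of the upstream acceptor over tables (vertical axis, 0 to 1); the bars are medians. The median is 0.596 with cytosine, 0.641 with thymine, 0.90 with adenine and 0.974 with guanine, and the cytosine class covers nearly the whole scale.

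The class did not fix the level of a single site. Among the 41 CAG before CAG sites the level ran from 0.0963 to 0.962, and among all sites with a downstream CAG from 0.00559 to 0.983. By place, the median level was 0.659 at 341 coding sites, 0.600 at 47 sites in a 5′ untranslated region and 0.450 at 4 in a 3′ untranslated region.

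Levels were compared across tissues. In the brain, 98 sites were measured in all 3 regions; the median range of their tissue means was 0.0374, and 90 of them stayed within 0.1. Over liver, muscle and testis, 93 sites had a median range of 0.0564, and 67 stayed within 0.1. The median SD between replicates at these sites was 0.0480 in the brain and 0.0511 in the peripheral tissues. Across sites, Pearson's correlation of tissue means was 0.989 between cortex and hippocampus (109 sites), 0.990 between cortex and cerebellum (102) and 0.992 between hippocampus and cerebellum (109). It was 0.984 between liver and muscle (117), 0.972 between liver and testis (101) and 0.961 between muscle and testis (124). These are correlations across sites, which are not independent replicates and span the whole scale from 0 to 1. In all 6 tissues 51 sites were measured, with a median range of 0.101, 25 of them within 0.1 and 7 over 0.2. Sites near 0 or 1 have little room to move, and among sites at middle levels (0.1 to 0.9) fewer were constant: 65 of 73 stayed within 0.1 in the brain, 45 of 71 over the peripheral tissues and 14 of 40 over all 6 tissues, with median ranges of 0.0448, 0.0786 and 0.135. The brain and peripheral libraries were made with different kits and have different form lengths in the tables, so tissue and library type cannot be told apart between these 2 families.

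The next sites were ranked among the 40 measured in all 6 tissues at middle levels (0.1 to 0.9). Sparc, which encodes a secreted glycoprotein of the extracellular matrix, had the most reads of these together with Cnbp, Rnf10 and Gnb1. Its level had a lowest, median and highest sample of 0.722, 0.823 and 0.956 in cortex, 0.751, 0.807 and 0.873 in hippocampus and 0.777, 0.814 and 0.864 in cerebellum. The corresponding values were 0.766, 0.829 and 0.912 in liver, 0.788, 0.827 and 0.837 in muscle and 0.797, 0.833 and 0.846 in testis. All 6 tissues overlapped, and the table means of all 11 tables lay between 0.806 and 0.833.

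Among the same 40 sites at middle levels, Ctnnd1, which encodes p120 catenin of cell-cell junctions, had the smallest range over tissues together with Sparc. Its medians over 6 samples ran from 0.860 in cortex to 0.882 in liver, with single samples from 0.697 to 0.965. Gnb1, a G protein β subunit with its site in a 3′ untranslated exon, was low throughout, with tissue medians of 0.15 in hippocampus to 0.202 in liver. Cnbp had tissue medians of 0.227 in cortex to 0.302 in testis. At Ctnnd1, Gnb1 and Cnbp, too, every pair of tissues overlapped. The overlap at Ctnnd1 and Sparc follows in part from picking them for a small range.

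Rnf10, which encodes a RING finger protein, showed the split between the 2 library families. The lowest, median and highest samples were 0.634, 0.732 and 0.768 in cortex, 0.662, 0.725 and 0.751 in hippocampus and 0.726, 0.761 and 0.791 in cerebellum, from 17 to 61 reads per sample. They were 0.867, 0.901 and 0.920 in liver, 0.872, 0.884 and 0.899 in muscle and 0.847, 0.894 and 0.913 in testis, from 316 to 1053 reads. No brain sample reached the lowest peripheral sample, and the N2a samples (0.860 to 0.911 in the siFmr1 and siNT experiment) lay with the peripheral ones.

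**Figure D2:**
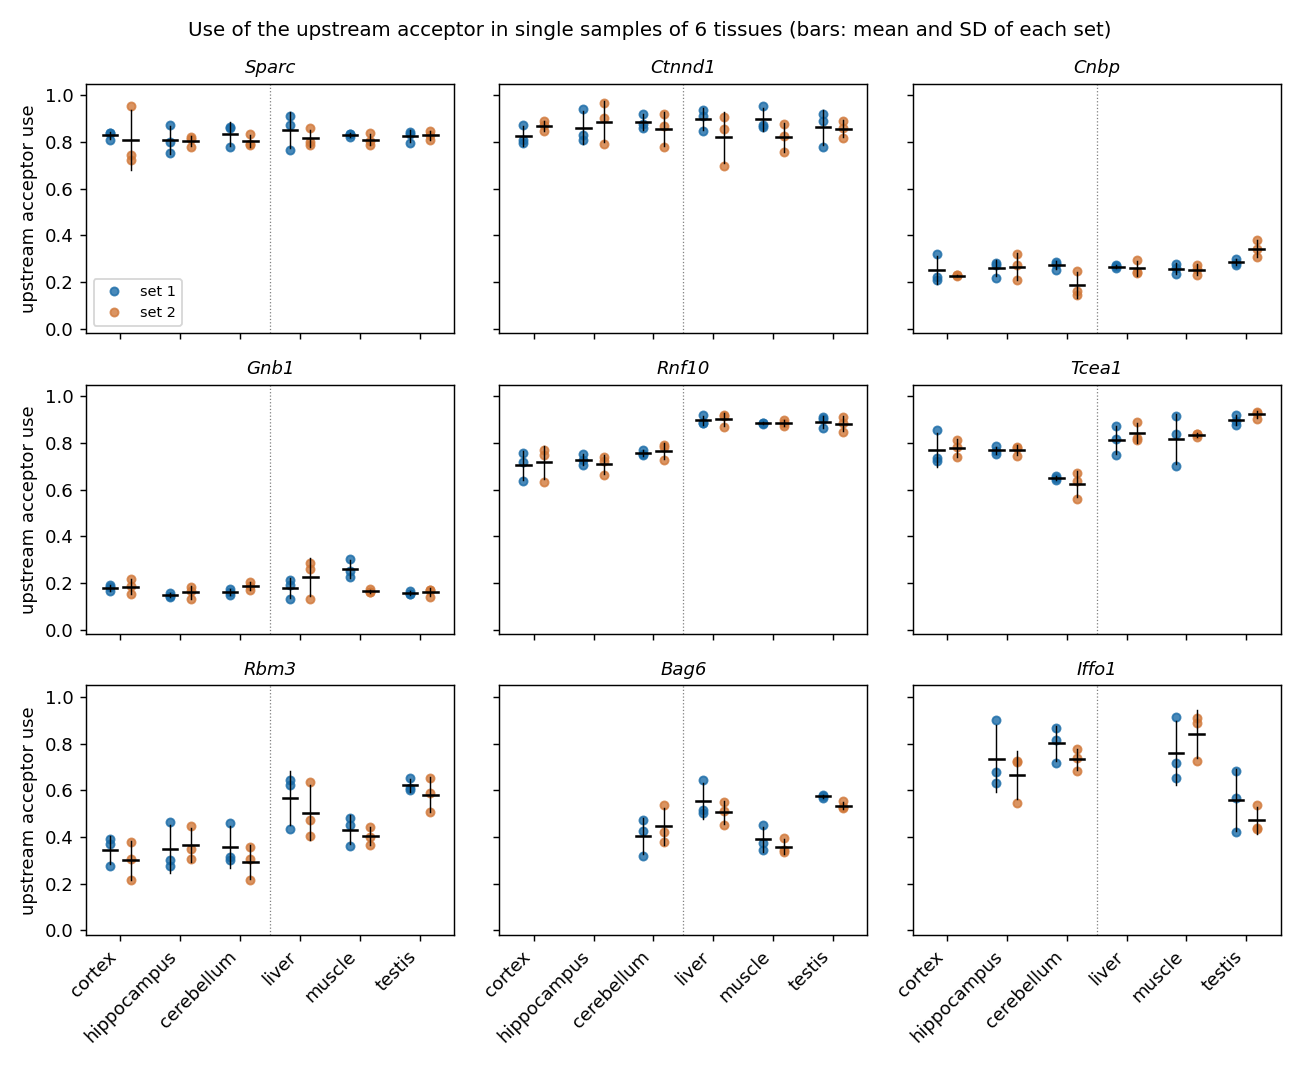
Each panel is 1 site, with the 6 tissues on the horizontal axis and the use of the upstream acceptor (0 to 1) on the vertical axis; points are single samples, coloured by replicate set, with the mean and SD of each set, and the dotted line divides brain from peripheral libraries. Sparc stays between 0.722 and 0.956 everywhere, while Iffo1 is higher in muscle (mean 0.802) than in testis (mean 0.515) and Tcea1 is lowest in cerebellum (mean 0.636).

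Tissues were then compared pairwise within each family, with the 12 replicates of both tissues and a separate mean for each set. A site was called at an adjusted p under 0.05 over all acceptor events tested and a difference of tissue means of at least 0.1. Of 206 sites tested, 29 were called in at least 1 pair and 9 in more than 1, giving 38 calls. Of the 29 sites, 3 were called in a brain pair and 26 in a peripheral pair. All acceptor events were split the same way, with 0.733% to 6.23% called in the brain pairs and 14.2% to 21.7% in the peripheral pairs. The brain regions also had fewer reads, 41.7 to 47.7 per replicate for the median member against 72.0 to 88.3. By the downstream triplet, the called sites were 21 of 148 tested with CAG, 4 of 19 with TAG, 2 of 30 with AAG and 2 of 3 with GAG.

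In the brain, cerebellum stood apart at Tcea1, which encodes a transcription elongation factor and whose extra triplet is TAG out of frame. Its lowest, median and highest samples were 0.722, 0.760 and 0.854 in cortex, 0.744, 0.772 and 0.785 in hippocampus and 0.560, 0.645 and 0.669 in cerebellum. All 6 cerebellum samples were below all cortex and hippocampus samples. The means were 0.774 ± 0.0520, 0.768 ± 0.0168 and 0.636 ± 0.0391 (SD, n = 6), a difference of 0.138 to cortex (quasi-binomial test, adjusted p = 0.0357) and of 0.132 to hippocampus (adjusted p = 0.0157). The call against cortex was lost in 7 of 12 fits that each left out 1 replicate, with differences of 0.122 to 0.148, and with a minimum of 10 reads. The call against hippocampus was lost in 1 of 12. It was the only 3-base call among 111 tested between hippocampus and cerebellum, where 4.35% of all acceptor events were called, and 2.17% with a higher level in hippocampus.

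Between cortex and cerebellum 2 of 104 tested events were called, Tcea1 and Cap1, both higher in cortex. Of all acceptor events 6.23% were called there, and 4.28% as higher in cortex. Cap1, which encodes an actin-regulating protein, has its site in the 5′ untranslated region at chr4:122872454-122872456 (-). With its most-read donor, the lowest, median and highest samples were 0.590, 0.626 and 0.669 in cortex, 0.528, 0.564 and 0.623 in hippocampus and 0.432, 0.514 and 0.548 in cerebellum. Cortex and cerebellum did not overlap, with a difference of means of 0.122 (adjusted p = 0.00314), and no fit without 1 replicate lost the call, while limma on logits did.

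Between cortex and hippocampus, 1 of 111 tested events was called and was lower in cortex; 0.733% of all acceptor events were called, all as lower in cortex (0.733%). The site was in Nars, which encodes the asparaginyl-tRNA synthetase and lies on chromosome 18. Its lowest, median and highest samples were 0.398, 0.537 and 0.736 in cortex and 0.624, 0.668 and 0.720 in hippocampus, so the tissues overlapped. The difference of means was -0.114 (adjusted p = 0.0269); it was lost in 5 of 12 fits without 1 replicate, with a minimum of 10 reads and with limma. Hippocampus samples differed in choroid plexus RNA. Values are in CPM, that is, gene counts scaled to library totals adjusted by edgeR's normalization factors. Ttr ranged from 7.22 to 4245 CPM in hippocampus and from 1.68 to 208 in cortex. Kl ranged from 21.5 to 309 against 2.56 to 18.2, and Folr1 from 0.323 to 46.9 against 0.159 to 2.10. All 3 markers of that list were higher in hippocampus at their highest sample, and their part in the result was not tested. In cerebellum, Ttr was at 325 to 1237 CPM, Kl at 20.9 to 76.3 and Folr1 at 4.13 to 10.3, above every cortex sample. Their part in the calls at Tcea1 and Cap1 between cortex and cerebellum was not tested either.

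**Figure D3:**
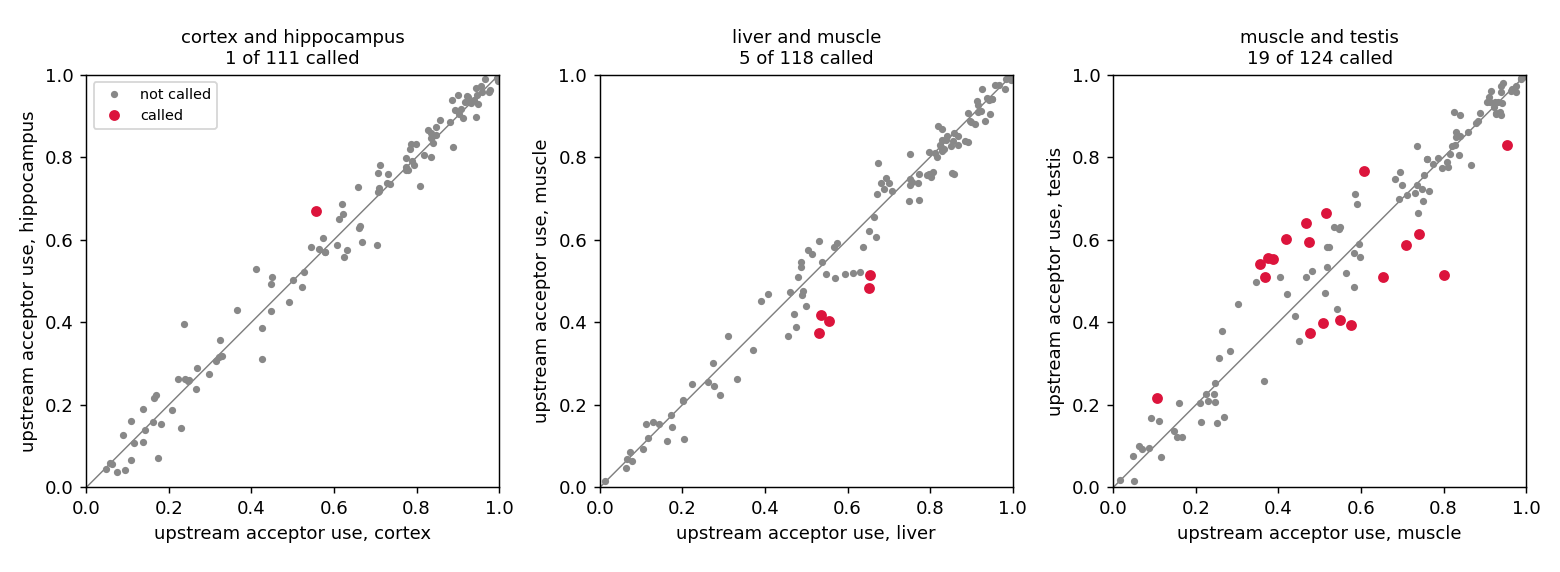
Each point is 1 tested 3-base event, with its mean use of the upstream acceptor in one tissue against that in another; the line marks equal use and red points were called. Called events number 1 of 111 between cortex and hippocampus, 5 of 118 between liver and muscle and 19 of 124 between muscle and testis. Most of the remaining points lie near the line. The largest difference between cortex and hippocampus, 0.159, was not called.

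Among the peripheral tissues, muscle and testis differed at the most sites. Of 124 tested events 19 were called, 9 higher and 10 lower in muscle. Over all acceptor events, 21.7% were called, 9.71% as higher and 12% as lower in muscle. The members' share was 15.3%, against 25.2% of 226 other acceptor events, and no test of that difference was made.

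Iffo1, which encodes an intermediate filament family protein of the nucleus, had the largest difference among the 38 calls. Its CAG before CAG site had a lowest, median and highest sample of 0.653, 0.808 and 0.916 in muscle and 0.421, 0.490 and 0.685 in testis, from 22 to 37 and 54 to 73 reads per sample. Only the highest testis sample reached into the muscle range. The means were 0.802 ± 0.117 and 0.515 ± 0.103 (SD, n = 6), a difference of 0.287 (adjusted p = 2.1e-06) that no left-out replicate and no tested alternative removed. The site was also measured in hippocampus (median 0.701) and cerebellum (median 0.758).

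Among the 51 sites measured in all 6 tissues, Rbm3, which encodes a cold-inducible RNA-binding protein, varied most, with a range of 0.279. That range runs between the 2 library families, from cortex (mean 0.323) to testis (mean 0.602). Within the peripheral tissues the range was 0.184. The lowest, median and highest samples of Rbm3 were 0.215, 0.338 and 0.39 in cortex, 0.278, 0.327 and 0.466 in hippocampus and 0.217, 0.309 and 0.461 in cerebellum. They were 0.404, 0.549 and 0.646 in liver, 0.364, 0.424 and 0.483 in muscle and 0.506, 0.607 and 0.654 in testis. All testis samples were above all muscle samples, and above all brain samples. The difference was -0.184 between muscle and testis (adjusted p = 2.8e-06) and 0.118 between liver and muscle (adjusted p = 0.0116); the second was lost in 3 of 12 fits without 1 replicate and with limma. In the siFmr1 and siNT experiment, with 1669 to 3346 reads per sample, all 5 samples lay between 0.480 and 0.504.

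Bag6, which encodes a chaperone that guards newly made membrane proteins, was low in muscle. Its lowest, median and highest samples were 0.451, 0.516 and 0.645 in liver, 0.337, 0.361 and 0.450 in muscle and 0.524, 0.561 and 0.581 in testis. Muscle overlapped with neither tissue. The difference of means was 0.156 between liver and muscle (adjusted p = 0.000619) and -0.180 between muscle and testis (adjusted p = 3.7e-12), and no left-out replicate or alternative removed either call. Between liver and testis the difference of -0.0244 was not called (adjusted p = 0.606).

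Ewsr1, which encodes an RNA-binding protein of the FET family, was lower in muscle than in testis. Its lowest, median and highest samples were 0.165, 0.343 and 0.542 in muscle and 0.434, 0.554 and 0.634 in testis, so the tissues overlapped. The difference of -0.186 (adjusted p = 0.0124) was lost in 1 of 12 fits without 1 replicate and with limma. In the brain, Ewsr1 was lower still, with medians of 0.198 in cortex, 0.270 in hippocampus and 0.282 in cerebellum.

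Between liver and muscle, 5 of 118 tested events (4.24%) were called, all higher in liver: Rprd1b, Bag6, Nolc1, Gspt1 and Rbm3. Of all acceptor events 14.2% were called, 7.83% as higher in liver. Rprd1b, which encodes a protein that binds the tail of RNA polymerase II, had a lowest, median and highest sample of 0.577, 0.625 and 0.803 in liver and 0.320, 0.467 and 0.674 in muscle. Nolc1, which encodes a nucleolar phosphoprotein, had 0.402, 0.541 and 0.714 in liver and 0.283, 0.403 and 0.497 in muscle. At both, the tissues overlapped. The differences were 0.170 (adjusted p = 0.0333) and 0.152 (adjusted p = 0.0414), lost in 5 and 6 of 12 fits without 1 replicate and both with limma, and at Nolc1 also without the set term.

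Between liver and testis, 10 of 102 tested events (9.80%) were called, 4 higher and 6 lower in liver. Of all acceptor events 19.4% were called, 11% as higher and 8.39% as lower in liver. Dbnl, which encodes an actin-binding adaptor, had a lowest, median and highest sample of 0.0919, 0.299 and 0.375 in liver and 0.336, 0.431 and 0.590 in testis. Dnm2, the membrane-cutting GTPase dynamin 2, had 0.488, 0.689 and 0.752 in liver and 0.450, 0.519 and 0.568 in testis. Slc38a10, an amino acid transporter gene, had 0.573, 0.629 and 0.713 in liver and 0.408, 0.474 and 0.584 in testis. Samples of both tissues overlapped at all 3 sites. The differences of means were -0.170 at Dbnl (adjusted p = 0.0169), 0.155 at Dnm2 (adjusted p = 9.9e-05) and 0.153 at Slc38a10 (adjusted p = 0.00167). Dnm2 and Slc38a10 kept their calls in every fit without 1 replicate, and Dbnl lost it in 3 of 12 and with limma. Dbnl also differed between the sets of testis, at 0.524, 0.590 and 0.497 in set 1 and 0.336, 0.365 and 0.355 in set 2, which did not pass the test (adjusted p = 0.349).

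The remaining called sites were of the same kind, with absolute differences from 0.101 to 0.181. Of the 38 calls, 16 held in every fit without 1 replicate, and 14 also held under every alternative that tested them. Just outside the threshold of 0.1 lay Chtop at 0.0952 between liver and muscle, Cast at 0.0889 between liver and testis and Mrpl55 at 0.0965 between muscle and testis. Just inside lay Rbm3 at 0.118, H2afy at 0.101 and Uchl5 at 0.103. Beside the other acceptor events, the members' called share was 0.901% against 0.617% between cortex and hippocampus, 1.92% against 9.15% between cortex and cerebellum and 0.901% against 6.67% between hippocampus and cerebellum. In the peripheral pairs it was 4.24% against 19.4% and 9.80% against 24.0% for liver with muscle and with testis. The lower share in 5 of 6 pairs is a description, since the difference was not tested and the members and other events differ in form sizes and reads.

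**Figure D4:**
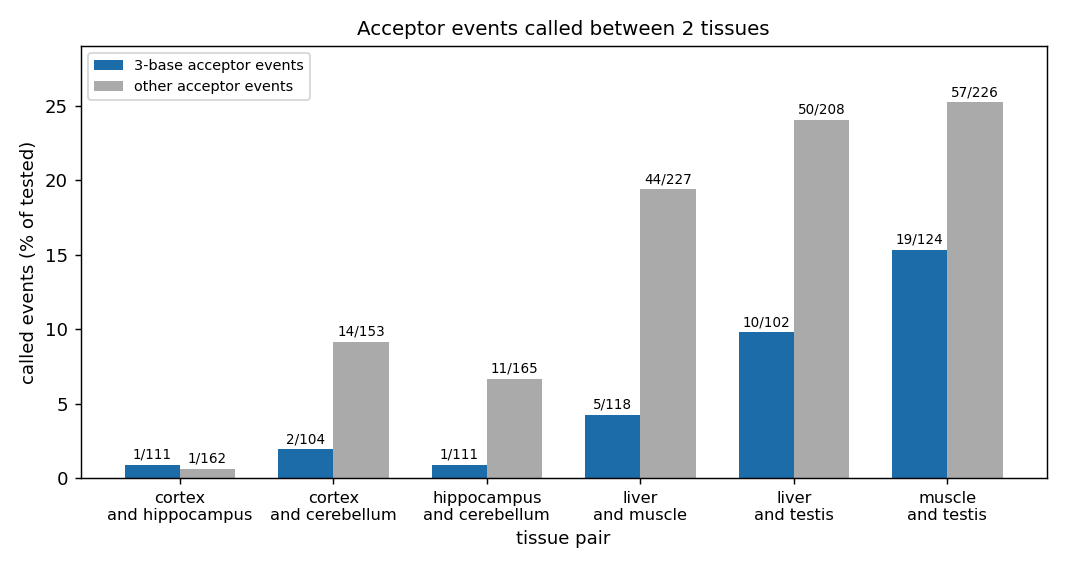
Bars give the percent of tested events called between 2 tissues (vertical axis) for 3-base events and for all other acceptor events, with called over tested above each bar. The members' share rises from 0.901% between cortex and hippocampus to 15.3% between muscle and testis, and it is below that of the other events in 5 of the 6 pairs.

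The comparison that the tables were made for, between the 2 sets of each table, called almost none of these sites. By the quasi-binomial test, 0 members were called in 10 of the 11 tables and 1 in the co-transfection comparison 4. Of all acceptor events, 0.336% were called in cortex, 0.684% in each of co-transfection comparisons 1 and 2, 1.08% in comparison 3 and 1.52% in comparison 4; in hippocampus, cerebellum, liver, muscle, testis and the siFmr1 and siNT experiment it was 0%. At an unadjusted p under 0.05 there were 4 members in cortex, 4 in hippocampus, 10 in cerebellum, 10 in liver, 4 in muscle, 17 in testis, 10 in the siFmr1 and siNT experiment and 23, 21, 13 and 26 in co-transfection comparisons 1 to 4. Over all acceptor events, the counts at this threshold were 11 of 298, 13 of 340, 31 of 377, 40 of 464, 33 of 543, 58 of 687 and 26 of 798 in the same order, and 141 of 1169, 135 of 1170, 106 of 1203 and 149 of 1186 in co-transfection comparisons 1 to 4. The members tested numbered 118, 131, 143, 148, 178, 217, 273, 329, 335, 333 and 336. By limma on logits 0 were called in all 11 tables. The authors' deposited table gave an FDR under 0.05 and a difference of at least 0.1 for 1, 0, 1, 3, 1, 2 and 3 members in cortex, hippocampus, cerebellum, liver, muscle, testis and the siFmr1 and siNT experiment. The authors' deposited table gave 7, 13, 2 and 6 in co-transfection comparisons 1 to 4. The share of all acceptor events at this threshold is not given here, so these counts cannot be set against it. The median absolute difference of a member between sets was 0.0217 to 0.0350 over the 11 tables. The test could miss changes. Of simulated acceptor events changed by 0.15, it recovered 9.3% in hippocampus to 58% in co-transfection comparison 4. At a change of 0.3 it recovered 71.4% in hippocampus to 96.5% in testis. In the tissue pairs, the share at 0.15 was 51.4% to 82.4%. The 0 calls therefore do not show that no site changed.

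The single call was in Hipk2, which encodes a stress-responsive kinase. In co-transfection comparison 4, set 1 had levels of 0.700, 0.799 and 0.778 from 44, 81 and 55 reads, and set 2 had 1.0, 0.964 and 1.0. The sets did not overlap; the means were 0.759 ± 0.0521 and 0.988 ± 0.0210 (SD, n = 3), a difference of -0.229 (adjusted p = 0.0385). Each of the 6 fits without 1 replicate lost the call, with differences of -0.248 to -0.199, as did limma, and the site does not reach a minimum of 50 reads. In comparison 2, which shares set 2, set 1 had 0.922, 0.855 and 0.901, and in comparison 1, which also shares it, set 1 had 1.0, 0.961 and 0.927. The labels list comparisons 1, 2, 3 and 4 with siNT pcDNA and siFmr1 pcDNA, with siMbnl1 pcDNA, with siFmr1 nMBNL1 and with siMbnl1 cMBNL1.

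Where the same acceptor pair is joined to more than 1 upstream donor, the tables list an event for each. Cap1 was measured with several donors in 9 tables, more than any other member, and was chosen for this after its values were seen. Its donors end at chr4:122885814 and, 19 bases closer to the start of the gene, at chr4:122885833, and the long-form junctions are shown to let the exon ends be compared; capitals again mark the 3 extra bases.
Cap1, donor 122885814: ggaactcttaagCAGgtggaacattatggc
Cap1, donor 122885833: cgcagtccggagCAGgtggaacattatggc

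With the first donor, the lowest, median and highest samples of Cap1 are those given above. With the second, they were 0.781, 0.898 and 0.956 in cortex, 0.918, 0.932 and 0.975 in hippocampus and 0.834, 0.909 and 0.962 in cerebellum. In all 3 regions the donors did not overlap, and 6 of 6 samples were lower with the first donor. The mean difference within a sample was -0.256 ± 0.0535 in cortex, -0.363 ± 0.0359 in hippocampus and -0.398 ± 0.0541 in cerebellum (SD, n = 6). In testis the level was higher with the second donor by a mean of only 0.00773 ± 0.137, with samples from 0.524 to 0.824 with the first and from 0.622 to 0.780 with the second, which overlapped. In the siFmr1 and siNT experiment it was -0.149, lower in 5 of 5 samples, and -0.105 to -0.134 in the co-transfection tables. No test was made of these differences.

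**Figure D5:**
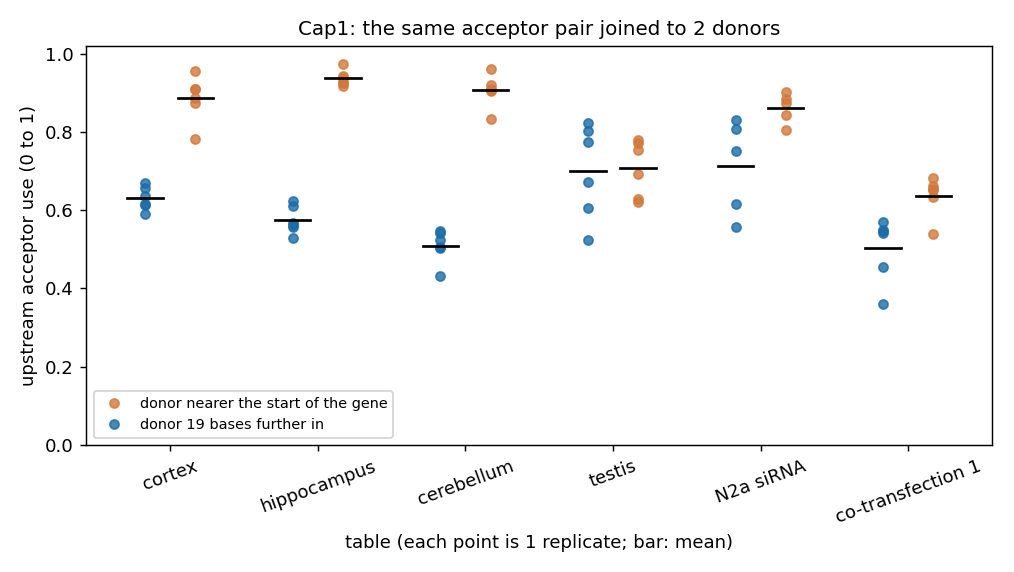
Points are single replicates of Cap1, with the use of the upstream acceptor (0 to 1) on the vertical axis and the table on the horizontal axis, coloured by the donor joined to the acceptor pair; bars are means. In cortex, hippocampus and cerebellum all samples with the donor further in lie below those with the donor nearer the start of the gene, and in testis the donors overlap.

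Other sites showed a larger gap between donors, also chosen after their values were seen. Rbm3 in the siFmr1 and siNT experiment had levels of 0.482, 0.502, 0.504, 0.497 and 0.480 with the donor at chrX:8143658 and of 1.0, 0.884, 1.0, 1.0 and 0.981 with the donor at chrX:8144573, the latter from 20 to 52 reads. Tle4, which encodes a transcriptional corepressor, had a median of 0.276 with the donor at chr19:14544788 and of 0.911 with that at chr19:14564389 in co-transfection comparison 1, and all 6 samples were lower with the first. Phf21a, which encodes a chromatin reader, had medians of 0.658 and 0.148 with the donors at chr2:92327164 and chr2:92320459 in the same table. In the co-transfection experiment, 19 to 23 sites per comparison had several measured donors, with a median gap of 0.0953 to 0.111; 8 to 12 sites were under 0.1 and 5 or 6 over 0.2. In testis the median gap over 9 sites was 0.0564, with 0 over 0.2.

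Genes for acceptor recognition were examined as a fixed list of 30: U2AF subunits and relatives, branch point proteins and second-step factors. In bulk tissue, fewer cells of a type and less RNA per cell cannot be told apart. Between Fmr1 KO and WT, edgeR's quasi-likelihood test called 0 of 30 in each tissue, with 9, 4, 2, 3, 2 and 6 at an unadjusted p under 0.05 in cortex, hippocampus, cerebellum, liver, muscle and testis. Over all genes the same threshold held 3110 of 14802, 1852 of 14843, 1276 of 14627, 1365 of 11928, 3281 of 12688 and 2836 of 15465. DESeq2 called 3 in cortex and 0 in each of the other tissues. The share of all genes that DESeq2 called is not given here. Of all genes tested, edgeR called 0.0203%, 0.209%, 0.226%, 0.411%, 4.04% and 4.27%. The median log2 fold change of the list lay between -0.02 and 0.03 in these tissues.

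Between brain regions, most of the list differed, as did most genes. Between hippocampus and cortex 22 of 30 passed the test (12 higher and 10 lower in hippocampus; 61.9% of all genes), between cerebellum and cortex 28 (25 higher, 3 lower; 78.4%) and between cerebellum and hippocampus 25 (23 higher, 2 lower; 78.3%). The list's median log2 fold change was 0.32 between cerebellum and cortex, against 0.02 over all genes, and 0.27 against 0.01 between cerebellum and hippocampus. Dhx16, a helicase that starts the first catalytic step, was at 18.8, 18.6 and 20.3 CPM in KO cortex, 22.9, 22.1 and 19.5 in WT cortex, 37.8, 36.2 and 37.0 in KO cerebellum and 37.2, 39.6 and 33.1 in WT cerebellum. All cerebellum samples were higher (log2 fold change 0.85, edgeR adjusted p = 8.2e-12). Dhx38, a helicase of the second step, rose by 0.77 on the log2 scale (adjusted p = 2.3e-12).

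Zrsr2, a relative of the AG-binding U2AF subunit, went the other way. It was at 59.0, 60.1 and 62.5 CPM in KO cortex, 57.4, 58.9 and 66.2 in WT cortex, 36.4, 37.2 and 37.3 in KO cerebellum and 39.4, 38.6 and 44.5 in WT cerebellum. All cerebellum samples were lower (log2 fold change -0.64, edgeR adjusted p = 1.3e-10). Cdc40, a second-step factor, was highest in hippocampus, by 0.47 over cortex (adjusted p = 3.3e-08), and lower in cerebellum than in hippocampus (log2 fold change -0.80, adjusted p = 2.1e-12) and cortex (-0.34, adjusted p = 1.2e-06). In hippocampus against cortex, Bud31 (-0.49, adjusted p = 1.1e-07) and Slu7 (-0.27, adjusted p = 5.15e-06), a second-step factor that binds near the acceptor, were lower, and Sf3b4 (0.35, adjusted p = 0.000102), a branch point complex subunit, was higher. The kinase gene Prpf4b was higher in cerebellum than in hippocampus (0.53, adjusted p = 2.7e-07), where Zrsr2 was lower (-0.43, adjusted p = 6.6e-08).

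In the co-transfection experiment, with deposited normalized counts and limma on log2(value + 1), each group was compared with siNT pcDNA, so the comparisons share these 3 samples. In siFmr1 pcDNA 17 of 30 passed (4 higher, 13 lower; 37.0% of all genes), in siMbnl1 pcDNA 7 (3 higher, 4 lower; 32.8%), in siFmr1 nMBNL1 13 (3 higher, 10 lower; 41.1%) and in siMbnl1 cMBNL1 9 (6 higher, 3 lower; 33.7%). Without 1 replicate the counts ranged from 13 to 20, 3 to 14, 9 to 16 and 5 to 14 in the same order. The count for siMbnl1 pcDNA was 14 without siNT pcDNA replicate 1 and 3 without its own replicate 1, and that for siMbnl1 cMBNL1 was 14 without siNT pcDNA replicate 2 and 5 without its own replicate 1. Zrsr2 had normalized counts of 1717, 1859 and 2107 in siNT pcDNA and of 2520, 2501 and 2425 in siFmr1 pcDNA. It had 2870, 2816 and 2693 in siMbnl1 pcDNA, 2599, 2698 and 2819 in siFmr1 nMBNL1 and 3025, 3043 and 2900 in siMbnl1 cMBNL1. All treated samples were above all siNT pcDNA samples, with log2 fold changes of 0.39, 0.56, 0.52 and 0.66 (limma adjusted p = 0.000400, 2.6e-05, 3.0e-05 and 4.4e-06).

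U2af1, the subunit that contacts the AG, had 4641, 2977 and 4208 in siNT pcDNA, 5510, 5382 and 5292 in siFmr1 pcDNA and 6095, 5996 and 6305 in siFmr1 nMBNL1. It had 5152, 4949 and 4925 in siMbnl1 pcDNA and 5078, 4869 and 4753 in siMbnl1 cMBNL1. It was higher in all 4 groups without overlap, by 0.48 in siFmr1 pcDNA (limma adjusted p = 0.00304), 0.66 in siFmr1 nMBNL1 (adjusted p = 0.000191), 0.37 in siMbnl1 pcDNA (adjusted p = 0.0169) and 0.34 in siMbnl1 cMBNL1 (adjusted p = 0.0260); the lowest siNT pcDNA sample, at 2977, lay apart from the rest. The call in siMbnl1 pcDNA was lost without its replicate 1 (0.35), and that in siMbnl1 cMBNL1 without its replicate 1 (0.31) or 2 (0.34). Fam50a, a second-step spliceosome component, was lower in siFmr1 pcDNA (-0.48, adjusted p = 0.000418) and siFmr1 nMBNL1 (-0.50, adjusted p = 0.000246), and had log2 fold changes of -0.17 in siMbnl1 pcDNA (adjusted p = 0.134) and 0.01 in siMbnl1 cMBNL1 (adjusted p = 0.934); the difference between groups was not tested. Nkap was lower in all 4 groups: siFmr1 pcDNA (-0.39, adjusted p = 0.00225), siFmr1 nMBNL1 (-0.36, adjusted p = 0.00308), siMbnl1 pcDNA (-0.50, adjusted p = 0.000377) and siMbnl1 cMBNL1 (-0.50, adjusted p = 0.000302). Sf3b1, the branch point complex subunit, was lower in siMbnl1 pcDNA (-0.35, adjusted p = 0.00177), siMbnl1 cMBNL1 (-0.28, adjusted p = 0.00668) and siFmr1 pcDNA (-0.23, adjusted p = 0.0235), and at -0.16 in siFmr1 nMBNL1 (adjusted p = 0.0974). The call in siFmr1 pcDNA was lost without siNT pcDNA replicate 2 (-0.14) and without any of its own 3 replicates (-0.22 to -0.23). Sf3b6 was higher in siMbnl1 pcDNA (0.44, adjusted p = 0.0441) and U2af2, which binds the pyrimidine stretch, in siMbnl1 cMBNL1 (0.47, adjusted p = 0.000359). The Sf3b6 call was lost in most fits without 1 replicate, and its value fell to 0.18 without siNT pcDNA replicate 2. Zrsr1, a copy of Zrsr2 that may share reads with it, was at 5.61, 21.9 and 11.5 normalized counts in siNT pcDNA and 0, 3.45 and 4.73 in siFmr1 nMBNL1 (-2.07, adjusted p = 0.0143), a low level at which the fold change depends on the pseudocount; the call was lost without siNT pcDNA replicate 2 (-1.63) or siFmr1 nMBNL1 replicate 1 (-1.29).

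The gene tables of tissues and of the siFmr1 and siNT experiment held 13230785 to 41384652 counts per sample, with the brain libraries at 26264368 or more. Fmr1 was lower in every KO group: its mean was 24.3 to 31.6 CPM in KO brain regions against 90.6 to 124 in WT, 7.68 against 23.6 in liver, 9.52 against 14.6 in muscle and 8.95 against 34.7 in testis. In the siFmr1 and siNT experiment, Fmr1 was at 2.12 to 14.7 CPM in siFmr1 and 22.4 to 77.7 in siNT, and Mbnl1 ranged from 46.6 to 238 CPM within siNT, so these libraries stand apart from each other. In the co-transfection experiment mean Fmr1 was 3093 normalized counts in siNT pcDNA, 594 in siFmr1 pcDNA and 538 in siFmr1 nMBNL1, and mean Mbnl1 was 4396 in siNT pcDNA and 1485 in siMbnl1 pcDNA.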

How the data were processed

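Per the submitters' processing notes, reads were processed with CASAVA, FastQC 0.11.8, Trimmomatic 0.39, Bowtie2 2.3.5, STAR 2.6.1, RSEM 1.3.1 and DESeq2 1.16.1 on GRCm38/mm10; the version of the splicing tool is not given in the sources used here. The deposited acceptor tables hold junction counts of both forms per replicate, form lengths, p-values and a score of inclusion difference, per the file headers. The gene tables hold read counts, per the file headers, and the co-transfection table holds a normalized signal (called normalized counts here), per the file headers.

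Levels were computed as length-corrected shares of junction counts. Set and tissue comparisons used a quasi-binomial model over all acceptor events with a mean of at least 20 reads per replicate in each set, with dispersion moderated by limma 3.58.1 (floor of 1) and Benjamini-Hochberg adjustment. Gene counts were tested with edgeR 4.0.16, and DESeq2 1.42.0 as an alternative, and normalized values with limma. The scripts were tested on simulated data. Digits regrouped in the deposited replicate lists were restored from the deposited levels at Psap, and Naca was left out in cerebellum and hippocampus. Of the per-sample count columns for muscle, 2 matched no sample and were not used. The members, the list of 30 genes and the naming rule were chosen with earlier results of these data known. Named sites are the 3 called ones of largest difference per comparison, the 4 with most reads and the 2 of smallest range over tissues; of listed genes, the 2 of largest change in each direction; a gene named against siNT pcDNA in 1 group was given for other groups too, chosen after its values were seen. Of 6 textbook genes of this kind (Stat3, Igf1r, Atn1, Pax3, Mitf and Ing4), none had a listed 3-base event and none was analysed here. Alternatives were a minimum of 10 or 50 reads, a minimum difference of 0.05, limma on logits, no dispersion floor, no length correction, no set term, each replicate left out, other filters and pseudocounts, and a replicate block.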

Additional observations from a re-analysis of the deposited data

How the results depend on the processing

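Between sets, the authors' deposited table gave 1 member in cortex, 1 in cerebellum, 3 in liver, 1 in muscle, 2 in testis, 3 in the siFmr1 and siNT experiment and 7, 13, 2 and 6 in co-transfection comparisons 1 to 4, where the model here gave 0, or 1 in comparison 4; the cause was not tested. The share of all acceptor events passing by the authors' deposited values is not given here. With a minimum difference of 0.05, comparison 2 had 1 call. In comparison 4 a minimum of 50 reads and limma on logits gave 0. Without 1 replicate the set comparisons of all 11 tables gave 0 to 0. Between cortex and hippocampus a minimum of 10 reads and limma gave 0. Between cortex and cerebellum a minimum of 10 or 50 reads and limma each gave 1, and between hippocampus and cerebellum a minimum of 50 reads gave 0. With a minimum of 50 reads, liver and muscle had 3, liver and testis 6 and muscle and testis 10; with limma they had 1, 5 and 12. A minimum of 50 reads tests fewer events.

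Without 1 replicate, calls ranged from 0 to 1 between cortex and hippocampus (0 without replicate 1 of any of the 4 sets or replicate 2 of hippocampus set 2), 1 to 3 between cortex and cerebellum (1 without cerebellum set 1 replicates 1 or 2, cerebellum set 2 replicates 2 or 3, or replicate 2 of either cortex set), 0 to 1 between hippocampus and cerebellum (0 without hippocampus set 1 replicate 3), 3 to 6 between liver and muscle, 7 to 13 between liver and testis and 14 to 20 between muscle and testis. Liver and muscle had 3 without liver set 2 replicate 2 and without muscle set 1 replicate 1, set 2 replicate 2 or set 2 replicate 3. For single named sites, 593 of the alternatives run kept direction and call and 123 kept the direction only; for genes these were 589 and 23.

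Of the listed genes, DESeq2 called 3 in cortex KO against WT, and its share over all genes is not given here. Without 1 replicate the counts were 0 to 3 in cortex (3 without WT replicate 3) and in testis (3 and 1 without KO replicates 1 and 2), 0 to 0 in the other 4 tissues, 20 to 23, 28 to 28 and 25 to 25 between hippocampus and cortex, cerebellum and cortex, and cerebellum and hippocampus, and 13 to 20, 3 to 14, 9 to 16 and 5 to 14 in the co-transfection groups in the order given. In siMbnl1 pcDNA 14 passed without siNT pcDNA replicate 1, 3 without its own replicate 1, and 4 without siFmr1 pcDNA replicate 1, its own replicate 2, siFmr1 nMBNL1 replicates 2 or 3, or siMbnl1 cMBNL1 replicate 3. In siMbnl1 cMBNL1 14 passed without siNT pcDNA replicate 2 and 5 without its own replicate 1. With a replicate block, KO against WT gave 0 in each tissue, the brain regions 21, 28 and 25 and the co-transfection groups 18, 7, 13 and 10, and the block moved no count by over 1.5 times. Samples with the same number did not deviate together throughout (correlations of -0.63 to 0.57), so the numbers were not taken to pair samples. No paired analysis was possible for the splicing tables because their replicate lists carry no numbers.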
